A study of Mus musculus with 8 samples.

Results

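Pre-mRNA splicing is carried out by the spliceosome, which assembles on each intron from small nuclear ribonucleoprotein particles (snRNPs) named U1, U2, U4, U5 and U6 after their RNAs. The genes described here encode its core proteins: the Sm proteins that form a ring around most of these RNAs, the SF3A and SF3B complexes of the U2 particle, a set of pre-mRNA processing factors (PRPF), and the Sm-like (LSM) proteins, which form rings on U6 RNA in the nucleus and on mRNA ends in the cytoplasm. These genes are expressed in every nucleated cell, so in heart tissue their RNA comes from cardiomyocytes, fibroblasts, vessels and immune cells together.

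The genes were taken from the deposited table as all rows with values whose symbol begins with Snrpa to Snrpg, Sf3a, Sf3b, Prpf or Lsm, leaving out pseudogenes marked as such and Snrnp70. This gave 49 of the 18835 genes with values, and 0 matching rows lacked values. Of the 49, 46 have a role in the spliceosome or as an LSM protein. The other 3 match by their letters only. They are Lsmem1 and Lsmem2, named for leucine-rich single-pass membrane proteins, and Snrpert, a processed pseudogene related to Snrpe. Despite its name, Lsmem2 is annotated in GENCODE M21 as a long intergenic noncoding RNA, with 369 exon bases.

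RNA was sequenced from hearts of male BALB/cAJcl mice, 10 weeks old, that had all been immunized with cardiac myosin, which induces autoimmune myocarditis. The control group (n = 4) received PBS and the treated group (n = 4) received VEGF-C C156S, the lymphatic growth factor with a substitution that makes it selective for VEGFR-3, at 1 µg per day. Injections were intraperitoneal and ran from day 7 to day 10, and the hearts were taken in week 3. Hearts without immunization were not analysed here, so each comparison is between immunized groups. The columns of the table carry a group and a number but no animal, so p-values measure the spread between these samples.

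Recovered reads totalled 61.7 to 76.8 M in the PBS libraries and 53.7 to 65.2 M in the VEGF-C libraries, and the 49 genes had between 34 and 18642 reads each in a library. The series title speaks of lymphatic endothelial cells, whereas the labels give heart. The 6 cardiomyocyte markers summed to 2176612 to 2960965 normalized counts in PBS and 2975777 to 3215540 in VEGF-C, against 13957 to 21840 and 15973 to 28737 for 6 lymphatic endothelial markers. Markers of fibroblasts summed higher in VEGF-C without overlap (317245 to 451593 in PBS, 482415 to 572363 in VEGF-C), but of the 6 only Col1a1 passed as higher, and Pdgfra and Dcn had negative log2 fold changes (-0.21 and -0.12). The cardiomyocyte sums did not overlap either, while 0 of the 6 markers passed with limma, 1 passed with limma-voom, 2 in the authors' deposited table, and 2 had an unadjusted p under 0.05. B cell markers summed lower without overlap (2688 to 4542 in PBS, 706 to 1847 in VEGF-C), and 4 of the 6 passed the test as lower. The sums for macrophages (58852 to 68900 against 54867 to 67901) and cycling cells (5711 to 6357 against 4099 to 7175) overlapped. T cell sums overlapped too (2174 to 3015 against 2199 to 2835), and 0 of the 6 markers passed, while 2 had an unadjusted p under 0.05. Neutrophil sums overlapped as well (16825 to 42104 against 10606 to 32302), but all 6 of their log2 fold changes were negative, with a median of -0.69, and Csf3r and Mmp9 passed as lower. Of the blood endothelial markers 1 passed, Egfl7, as lower (-0.92), and of the lymphatic endothelial markers 1 passed, Flt4, as higher (0.40). No marker was at 0 in any library. The part of these cell types in the results was not tested, and in bulk tissue fewer cells of a type and less RNA per cell cannot be told apart.

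In the hearts of VEGF-C-treated mice, 3 genes of the U2 particle rose: Sf3a2 to 1.54, Sf3a1 to 1.39 and Sf3b4 to 1.39 of the PBS level. Both LSM14 genes rose as well, Lsm14b to 1.30 and Lsm14a to 1.24. A pair of PRPF genes fell, the kinase gene Prpf4b to 0.704 and the U1-associated Prpf40b to 0.718 of the PBS level. No gene of the Sm ring or of the LSM rings passed the test. Levels below are normalized counts, which are read counts divided by the authors' factor for the library. Differences are log2 fold changes of VEGF-C against PBS on the deposited scale, log2(normalized count + 4), with the standard error (SE) from limma, and a gene passed when its limma adjusted p (Benjamini-Hochberg over all 18835 genes) was under 0.05.

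By this rule 8 of the 49 genes (16.3%) passed, against 15.7% of all genes tested, so the share was near that of all genes. Of the 8, 5 were higher in VEGF-C (background 7.05%) and 3 were lower (background 8.61%). Among the 46 genes with a role, 5 were higher and 2 lower, and the median log2 fold change was 0.08. That median was 0.00 over all genes and 0.05 over the 14477 genes with a mean normalized count of at least 100. Of the 46 fold changes 35 were positive, against 50.2% of all genes and 56.9% of the genes with at least 100 normalized counts. The 4 libraries of one group lay wholly above those of the other for 12 of the 49 genes (24.5%), against 23.0% of all genes.

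The balance of directions rested on the scaling between libraries. With library totals in place of the authors' factors, which moved the median of all genes by -0.19, 3 members passed as higher (background with that scaling 1.29%) and 6 as lower (background 19.0%), and 39 of the 49 fold changes were negative. The 3 that were still higher were Sf3a1, Sf3a2 and Sf3b4, and the lower ones included Prpf4b, Prpf40b and Lsmem2. With only genes of at least 100 mean normalized counts tested, 8 members passed as higher (background 9.76%) and 3 as lower (background 8.34%). The authors' deposited table has 8 as higher (background 10.2%) and 4 as lower (background 11.4%). Small shifts of the other members are therefore given as values relative to the authors' scaling.

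**Figure D1:**
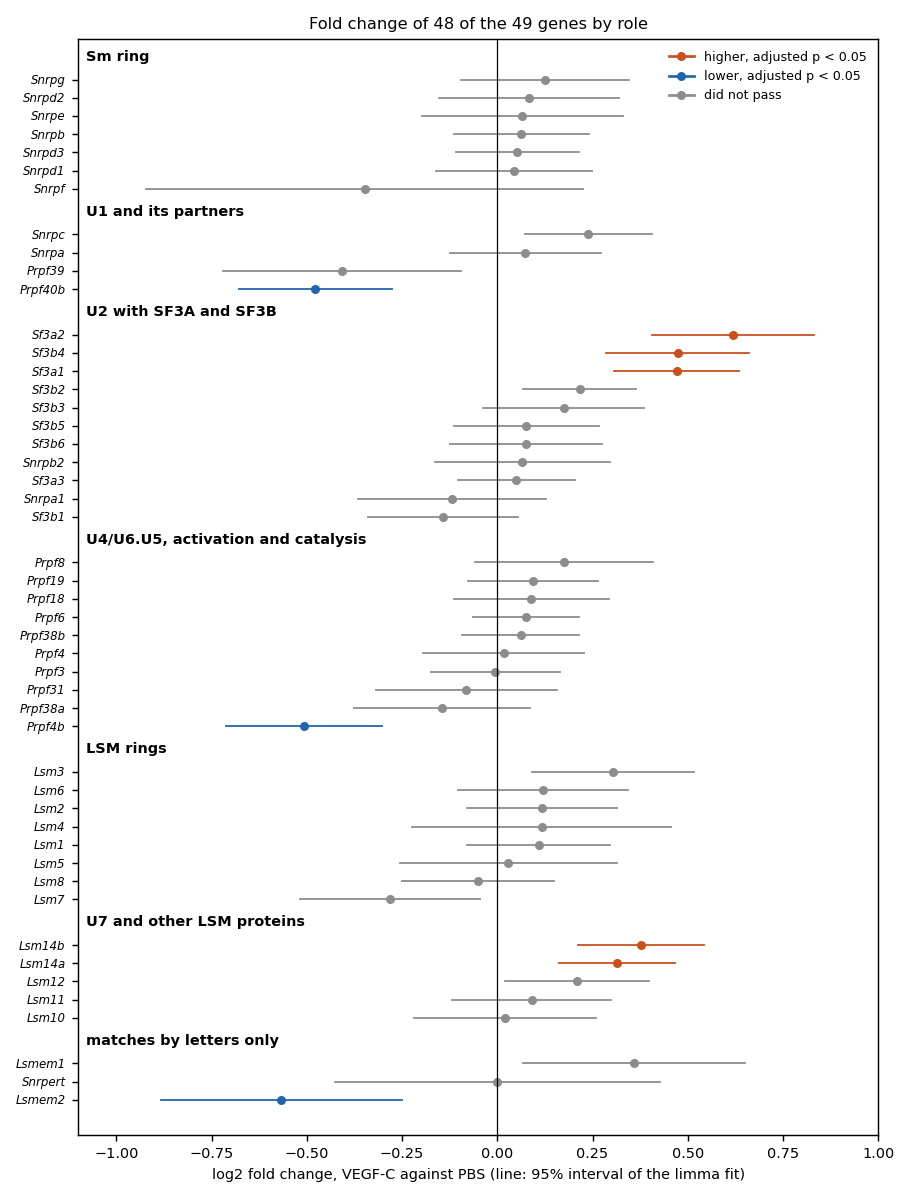
Log2 fold change of VEGF-C against PBS (x axis) for 48 of the 49 genes, arranged by role; points are limma estimates, lines their 95% intervals, and colour marks the 5 genes that passed as higher and the 3 that passed as lower. The genes that passed as higher belong to the U2 group and to the other LSM proteins, and no Sm or LSM ring gene passed.

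The promoters of 4 of these genes are printed because Sf3a1, Sf3a2 and Sf3a3 encode the subunits of one complex, of which the first 2 passed as higher, and Prpf4b passed as lower. They run from 250 bases before to 50 after the transcription start, in RefSeq on GRCm38.p6, and all 4 lie on the plus strand: Sf3a2 at chr10:80798485-80798784, Sf3a1 at chr11:4160104-4160403, Sf3a3 at chr4:124714611-124714910 and Prpf4b at chr13:34875279-34875578. The deposited values were made on another build, GRCm39. In these lines capitals mark the letters CCGGAAG (the core bound by ETS factors) and GGGCGG (the GC box bound by SP factors) on either strand.
Sf3a2: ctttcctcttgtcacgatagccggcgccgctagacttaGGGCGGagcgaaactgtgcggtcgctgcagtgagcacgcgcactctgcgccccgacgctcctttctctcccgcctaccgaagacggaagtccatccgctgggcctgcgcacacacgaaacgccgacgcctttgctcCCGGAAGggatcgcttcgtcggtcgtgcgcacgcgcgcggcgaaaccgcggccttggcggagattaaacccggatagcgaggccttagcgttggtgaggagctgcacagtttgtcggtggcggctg
Sf3a1: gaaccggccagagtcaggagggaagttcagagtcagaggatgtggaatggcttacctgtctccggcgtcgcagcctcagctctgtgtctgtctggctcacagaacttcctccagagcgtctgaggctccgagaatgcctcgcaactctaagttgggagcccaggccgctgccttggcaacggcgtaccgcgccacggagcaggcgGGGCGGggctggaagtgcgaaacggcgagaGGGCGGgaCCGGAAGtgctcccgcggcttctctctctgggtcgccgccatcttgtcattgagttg
Sf3a3: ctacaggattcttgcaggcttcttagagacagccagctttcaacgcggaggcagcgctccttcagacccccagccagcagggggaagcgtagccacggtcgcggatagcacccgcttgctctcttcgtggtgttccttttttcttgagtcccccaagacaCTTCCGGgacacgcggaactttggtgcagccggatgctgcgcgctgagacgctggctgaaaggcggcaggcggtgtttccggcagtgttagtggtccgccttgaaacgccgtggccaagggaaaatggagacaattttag
Prpf4b: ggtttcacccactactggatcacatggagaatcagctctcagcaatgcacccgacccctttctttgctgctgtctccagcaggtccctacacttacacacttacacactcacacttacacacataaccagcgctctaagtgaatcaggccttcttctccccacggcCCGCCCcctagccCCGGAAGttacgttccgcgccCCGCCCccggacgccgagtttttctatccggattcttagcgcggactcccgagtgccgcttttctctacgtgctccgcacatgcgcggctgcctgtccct

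The ETS letters were present in all 4 printed windows, those of Sf3a1 and Sf3a2 (which rose), Sf3a3 (which did not pass) and Prpf4b (which fell). They were absent from the windows, not printed, of Prpf40b, Lsm14a and Lsm14b, which also passed. The GC box letters were present in Sf3a1, Sf3a2 and Prpf4b and were not in the window of Sf3a3. Prpf40b and Lsm14b had them as well, and Lsm14a did not. RefSeq promoters were found for 37 of the 46 genes with a role. CCGGAAG or its reverse complement CTTCCGG occurred in 15 of them (40.5%), against 9.93% of 27025 genes. GGGCGG or CCGCCC occurred in 24 (64.9%), against 38.2%. CCAAT or ATTGG occurred in 43.2%, against 41.1%, and TATAAA or TTTATA in 5.41%, against 15.7%. CACGTG, the E-box, occurred in 10.8%, against 8.09%. Longer letters searched on both strands for YY1 occurred in 1 of the 37, Sf3a1, against 0.755% of all genes, and those for NRF1 in 0, against 1.07%. Matches were counted whether or not they overlapped, and a gene counted when any of its start sites had a match. The 27025 genes are all those with a RefSeq promoter, whether or not they had values in these hearts. The median GC content of the windows was 59.0%, against 52.8% over all genes, so base composition differed along with the letters, and a match describes the sequence only.

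Sm proteins B, D1, D2, D3, E, F and G close into a ring of 7 around U1, U2, U4 and U5 RNA. Lengths here are the union of all annotated exons of a gene. Per kilobase of exon in PBS, Snrpb, which encodes the B protein, had the highest level of these genes at 3433 ± 227 normalized counts (SD, n = 4). Snrpd2 followed at 1242 ± 152 and Snrpe at 1212 ± 230, which overlap within their SDs. Snrpg, at 993 ± 86.9, also overlapped Snrpe within the SDs. Then came Snrpd3 at 722 ± 37.9 and Snrpd1 at 536 ± 27.7. Snrpf, for the F protein, was far below the others at 70.6 ± 21.9 per kilobase. The ring holds 1 copy of each protein, whereas the RNA levels of its genes differed widely on these lengths. The union of exons can be much longer than the longest protein-coding transcript. For Snrpd1 it is 2052 bases against 858, and for Snrpd3 3442 against 3036. The order of the genes between Snrpb and Snrpf therefore depends on the length used.

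Several of these genes have near-identical copies in the genome, so their counts are uncertain. Of the 49 members, 17 share at least 100 bases at 95% identity or more with another gene in GENCODE M21, and for 13 that includes a pseudogene. Snrpf matches Gm13092 over 258 bases at 98.8%, and it had only 34 to 91 reads in a library. Snrpe matches Snrpert over 225 bases at 99.6%, and Snrpg matches Gm8186 over 231 bases at 100%. How reads with several matches were assigned is not stated in the labels or notes.

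Between the treatments 0 of the 7 Sm ring genes passed with limma, 0 had an unadjusted p under 0.05 (32.3% of all genes did), and 0 passed with limma-voom (14.8% of all genes) or in the authors' deposited table (21.6%). Snrpb had 7259, 6840, 6178 and 6855 normalized counts in PBS and 7481, 7590, 6915 and 6385 in VEGF-C. The groups overlapped, and the log2 fold change was 0.06 ± 0.08 (SE, limma adjusted p = 0.624), with the sign reversed under library totals (-0.13). Snrpf ranged from 36.2 to 77.1 in PBS and from 39.8 to 51.5 in VEGF-C, with a log2 change of -0.35 ± 0.26 (limma adjusted p = 0.382). Its near-identical copy Gm13092 was read at a mean of 42.4 normalized counts in PBS and 60.3 in VEGF-C, so reads could pass between them. The other 5 Sm ring genes lay between 0.04 and 0.13. Their 95% intervals ran from -0.20 to 0.35 on the authors' scaling.

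**Figure D2:**
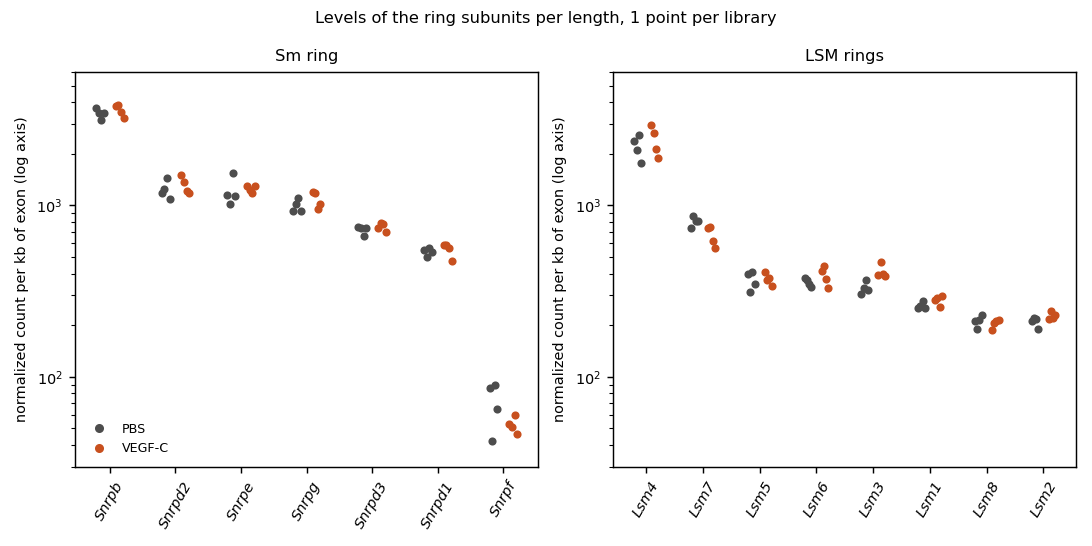
Normalized counts per kilobase of exon (y axis, log scale) of the Sm ring and LSM ring genes in each of the 4 PBS and 4 VEGF-C libraries; each point is a library. Snrpb and Lsm4 lead their rings, Snrpf is lowest, and the groups overlap for every ring gene except Lsm3.

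The U1 particle pairs with the 5′ splice site. Its A and C proteins are encoded by Snrpa and Snrpc, and Prpf39 and Prpf40b encode factors that work with it. Of the 5 members in this group, 1 passed, Prpf40b, as lower, where 8.61% of all genes passed as lower. It had 2448, 2675, 2196 and 2567 normalized counts in PBS and 1684, 1933, 1598 and 1884 in VEGF-C. Every VEGF-C library was below every PBS library, and the log2 fold change was -0.48 ± 0.09 (SE, limma adjusted p = 0.00803).

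Snrpc had 1413, 1503, 1465 and 1354 normalized counts in PBS and 1808, 1691, 1714 and 1560 in VEGF-C. Its groups did not overlap, but with a log2 change of 0.24 ± 0.08 it missed the threshold (limma adjusted p = 0.0564). It matches 3 pseudogenes, so its count is uncertain. It passed with low genes filtered out (0.0482) and in the authors' deposited table (0.0314). Prpf39, a U1-associated factor for alternative 5′ splice sites, had 1559, 1194, 1601 and 1740 in PBS and 955, 1069, 1175 and 1388 in VEGF-C. The groups overlapped through PBS replicate 2 and VEGF-C replicate 4, and the log2 fold change was -0.41 ± 0.14 (limma adjusted p = 0.0740). Without PBS replicate 2 that p was 0.0316, without VEGF-C replicate 4 it was 0.0460, with library totals 0.0149, and with upper-quartile factors 0.0460, and the authors' deposited table gave 0.0342.

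The U2 particle binds the branch point. SF3A, made of Sf3a1, Sf3a2 and Sf3a3, and SF3B, whose Sf3b1 clamps the branch helix, hold it there, and Snrpa1 and Snrpb2 encode the other U2 proteins. Of the 11 genes, 3 rose (27.3%, against 7.05% of all genes) and none passed as lower (8.61% of all genes). Sf3a2 had 2074, 2038, 1776 and 1769 normalized counts in PBS and 3205, 3137, 2913 and 2531 in VEGF-C. Each VEGF-C library exceeded each PBS library, and the group means were 1914 ± 164 and 2947 ± 304 (SD, n = 4). The log2 fold change was 0.62 ± 0.10 (SE, 95% interval 0.41 to 0.83, limma adjusted p = 0.00329).

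Sf3a1 had 2903, 3194, 2894 and 3355 normalized counts in PBS and 4255, 4006, 4436 and 4401 in VEGF-C. The groups were again apart, and the log2 fold change was 0.47 ± 0.07 (interval 0.31 to 0.63, limma adjusted p = 0.00357). The remaining subunit, Sf3a3, had 1899, 1685, 1709 and 1748 in PBS and 1853, 1752, 1834 and 1840 in VEGF-C. Those groups overlapped, and its log2 fold change was 0.05 ± 0.07 (interval -0.10 to 0.20, limma adjusted p = 0.663), with the sign turned under library totals (-0.14) and upper-quartile factors (-0.01). The upper bound of Sf3a3 lay below the lower bounds of Sf3a1 and Sf3a2. Sf3a3 was chosen for naming after its values were seen.

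A ratio of 2 genes within a library does not depend on the scaling between libraries. The log2 ratio of Sf3a1 to Sf3a3 was 0.61, 0.92, 0.76 and 0.94 in PBS and 1.20, 1.19, 1.27 and 1.26 in VEGF-C, a difference of 0.42 ± 0.08. The ratio of Sf3a2 to Sf3a3 was 0.13, 0.27, 0.06 and 0.02 in PBS and 0.79, 0.84, 0.67 and 0.46 in VEGF-C, a difference of 0.57 ± 0.10. In both the groups were apart, with an exact two-sided permutation p of 0.0286 each, the smallest the test can give with 4 against 4. After adjustment over the 9 ratios computed it was 0.0643, so neither passed. An adjusted p under 0.05 was possible only if most of the 9 ratios reached that smallest p, so the adjusted values cannot decide whether these ratios differ. The ratio of Sf3a2 to Sf3a1 differed by 0.15 ± 0.14 and overlapped (exact permutation p = 0.314, adjusted 0.404). These 3 ratios were chosen after the values were seen.

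Of the SF3B genes 1 passed, Sf3b4, which encodes an RNA-binding subunit. It had 1276, 1133, 1110 and 1232 normalized counts in PBS and 1519, 1816, 1674 and 1596 in VEGF-C. The groups were apart, with a log2 change of 0.47 ± 0.08 (interval 0.29 to 0.66, limma adjusted p = 0.00622). Sf3b4 shares 1278 bases at 99.3% identity with the pseudogene Gm7935, which was read at a mean of 86.4 normalized counts in PBS and 96.4 in VEGF-C, so reads could pass between them. Among the genes with a role that passed, it was the only one with such a pseudogene.

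Sf3b1 had 12193, 10754, 11496 and 11617 normalized counts in PBS and 8996, 10232, 10997 and 11641 in VEGF-C. The groups overlapped, and the log2 fold change was -0.14 ± 0.09 (interval -0.34 to 0.05, limma adjusted p = 0.293), which passed as lower with library totals (-0.33, adjusted p = 0.0245). The log2 ratio of Sf3b4 to Sf3b1 was -3.25, -3.24, -3.37 and -3.23 in PBS and -2.56, -2.49, -2.71 and -2.86 in VEGF-C. It was higher in every VEGF-C library than in every PBS library, by 0.62 ± 0.09 (exact permutation p = 0.0286, adjusted 0.0643), and this ratio too was chosen after its values were seen. Sf3b2, an SF3B scaffold subunit and the U2 gene with the highest mean over all 8 libraries, had 12038, 11893, 10853 and 11164 in PBS and 13737, 13645, 12905 and 13053 in VEGF-C. Its groups were apart, but the log2 fold change of 0.22 ± 0.07 did not pass (limma adjusted p = 0.0522, 0.0442 with low genes filtered out and 0.0156 in the authors' deposited table).

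**Figure D3:**
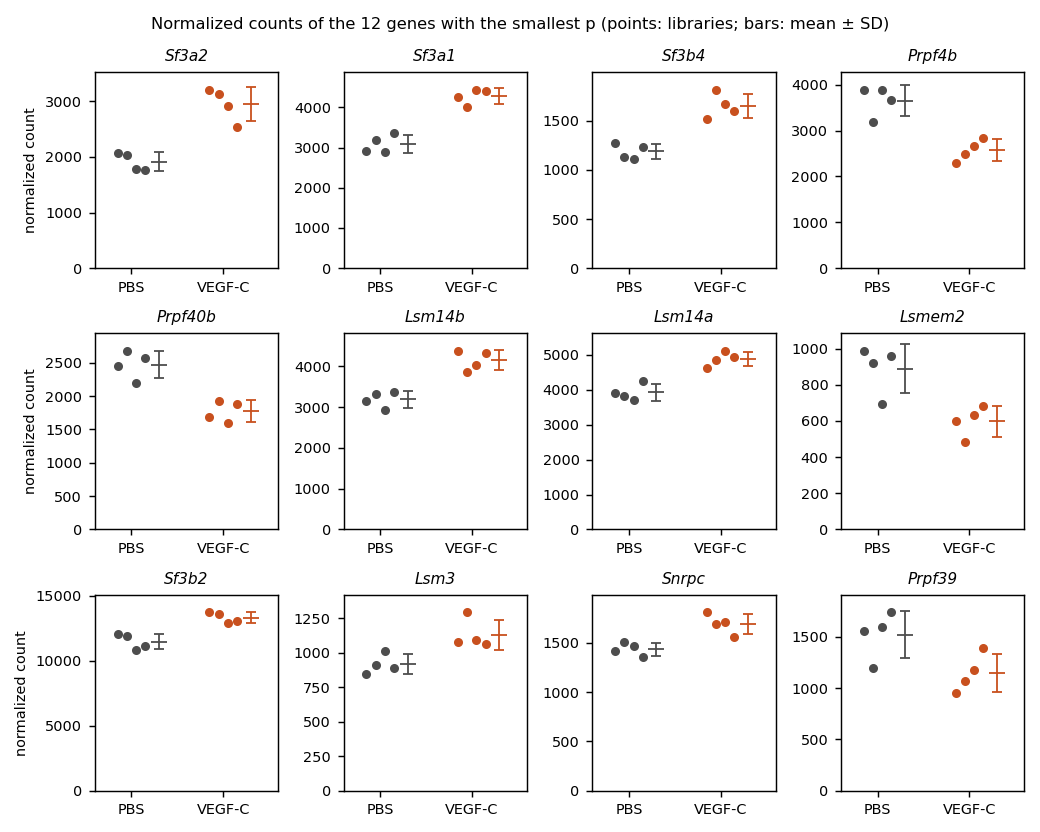
Normalized counts (y axis) of the members with the smallest p-values in each PBS and VEGF-C library; points are libraries and error bars the group mean ± SD. Sf3a2, Sf3a1, Sf3b4, Lsm14a and Lsm14b are higher in all 4 VEGF-C libraries, and Prpf4b, Prpf40b and Lsmem2 are lower.

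**Figure D4:**
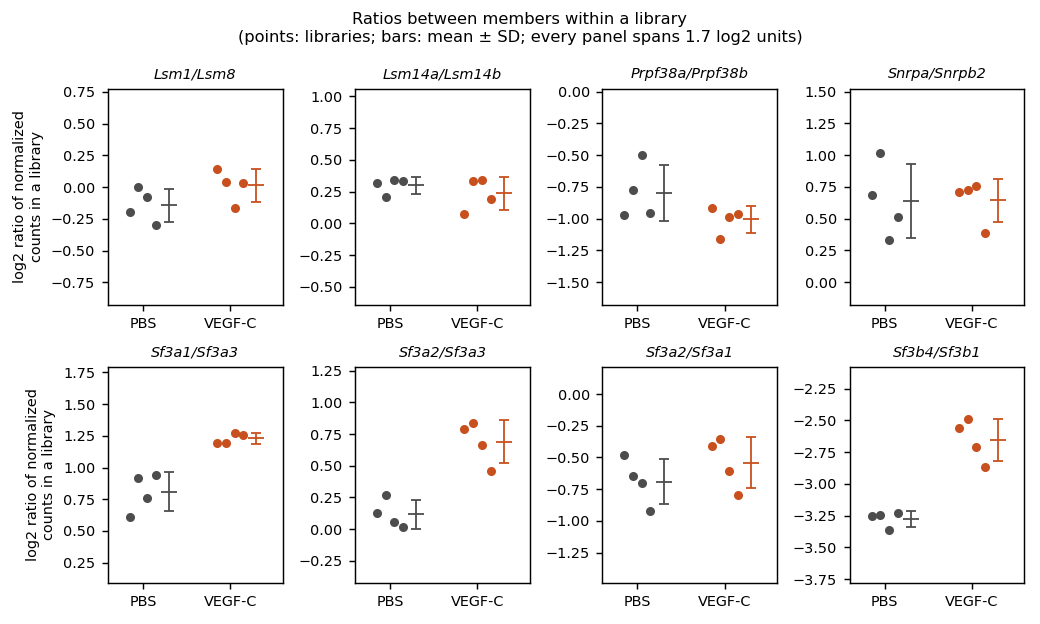
Log2 ratio of 2 members within each library (y axis) for 8 pairs; points are libraries and error bars the group mean ± SD. The groups do not overlap for Sf3a1/Sf3a3, Sf3a2/Sf3a3 and Sf3b4/Sf3b1 and overlap for the other 5 pairs.

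The U4/U6.U5 particle brings the catalytic RNAs. Prpf3, Prpf4 and Prpf31 encode U4/U6 proteins, Prpf6 and Prpf8 U5 proteins, Prpf19 the ubiquitin ligase of the activating complex, and Prpf4b a kinase that phosphorylates tri-snRNP proteins. Of these 10 genes, 1 fell (10.0%, against 8.61% of all genes) and none rose (7.05% of all genes). Prpf4b had 3889, 3180, 3876 and 3674 normalized counts in PBS and 2285, 2494, 2674 and 2830 in VEGF-C. Every VEGF-C library was lower, and the log2 fold change was -0.51 ± 0.09 (SE, limma adjusted p = 0.00673).

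Prpf19, with the highest mean of this group over all 8 libraries, had 15165, 15293, 13333 and 14617 normalized counts in PBS and 15612, 15097, 14624 and 16978 in VEGF-C. Its groups overlapped, the log2 fold change was 0.09 ± 0.08 (limma adjusted p = 0.436), and library totals turned the sign (-0.10). Per kilobase of exon it stood at 2006 ± 123 in PBS and Prpf8, the scaffold of the catalytic core, at 1623 ± 198. The 8 genes not named by a value of change lay between -0.14 and 0.18, with 95% intervals from -0.38 to 0.41. The ratio of Prpf38a to Prpf38b, paralogous activation factors, differed by -0.21 ± 0.12 with overlap (exact permutation p = 0.171, adjusted 0.257).

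LSM proteins 2 to 8 ring the end of U6 RNA in the nucleus, and LSM1 in place of LSM8 gives the cytoplasmic ring that leads mRNA to decapping. Per kilobase of exon in PBS, Lsm4 was highest at 2196 ± 345 and Lsm7 second at 806 ± 53.3. Lsm5 (368 ± 44.4), Lsm6 (357 ± 20.7) and Lsm3 (332 ± 26.3) were not separated beyond their SDs. Lsm1 stood at 260 ± 11.1, and Lsm8 (212 ± 15.7) and Lsm2 (210 ± 13.6) were alike within their SDs. The order below Lsm4 depends on the length used. All annotated exons of Lsm3 and Lsm8 together span 2753 and 4199 bases, against 743 and 807 in their longest protein-coding transcripts. Of the 8 genes 0 passed with limma or limma-voom, 1 passed in the authors' deposited table (12.5%, against 21.6% of all genes) and 2 had an unadjusted p under 0.05 (25.0%, against 32.3%).

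Lsm3 had 842, 913, 1013 and 888 normalized counts in PBS and 1075, 1291, 1090 and 1064 in VEGF-C. The groups were apart, with a log2 change of 0.30 ± 0.10 (limma adjusted p = 0.0558), and the authors' deposited table gave an adjusted p of 0.0295, against 0.0497 with low genes filtered out and 0.0499 without PBS replicate 3. Lsm7, named after its values were seen, had 1177, 1384, 1296 and 1305 in PBS and 1181, 1194, 987 and 904 in VEGF-C. Its groups overlapped at PBS replicate 1, with a log2 change of -0.28 ± 0.11 (limma adjusted p = 0.0984), which passed with library totals (-0.47, adjusted p = 0.0139). Lsm4 gave 0.12 ± 0.15 (limma adjusted p = 0.639, and -0.07 with library totals). The log2 ratio of Lsm1 to Lsm8, the subunits that distinguish the rings, was -0.20, 0.00, -0.08 and -0.30 in PBS and 0.15, 0.04, -0.16 and 0.03 in VEGF-C. It differed by 0.16 ± 0.09 and overlapped (exact permutation p = 0.143, adjusted 0.257).

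The other LSM proteins stand outside these rings. Lsm10 and Lsm11 belong to the U7 particle of histone mRNA processing, and Lsm14a and Lsm14b encode cytoplasmic proteins of P-bodies that repress translation. Of the 5 genes in this group 2 rose, where 7.05% of all genes passed as higher, and 0 passed as lower (8.61% of all genes). Lsm14b had 3151, 3327, 2921 and 3369 normalized counts in PBS and 4372, 3856, 4023 and 4330 in VEGF-C, and Lsm14a had 3920, 3834, 3699 and 4249 in PBS and 4610, 4860, 5107 and 4942 in VEGF-C. In both genes the groups were apart. The log2 fold change was 0.38 ± 0.07 for Lsm14b (limma adjusted p = 0.00954) and 0.31 ± 0.07 for Lsm14a (limma adjusted p = 0.0147).

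The LSM14 genes kept their calls when any 1 library was left out, with adjusted p at most 0.0308 for Lsm14b and 0.0495 for Lsm14a. Both lost the call with library totals (0.0884 and 0.194). Their log2 ratio within libraries differed by -0.06 ± 0.07 between the groups and overlapped (exact permutation p = 0.486, adjusted 0.546). Lsm12, named after its values were seen, had 1997, 1732, 1857 and 1735 in PBS and 2150, 2369, 1974 and 1980 in VEGF-C, with a log2 change of 0.21 ± 0.09 (limma adjusted p = 0.120).

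Of the genes that match by letters only, Lsmem2 had 986, 921, 691 and 959 normalized counts in PBS and 598, 482, 631 and 680 in VEGF-C. The groups were apart, and the log2 fold change was -0.57 ± 0.14 (SE, limma adjusted p = 0.0253). The call was lost without PBS replicate 2 (0.0584), without PBS replicate 4 (0.0631) and without VEGF-C replicate 1 (0.0564), 2 (0.0569) or 3 (0.0505). Lsmem1, named after its values were seen, had 584, 808, 582 and 796 in PBS and 821, 828, 943 and 925 in VEGF-C. Its groups were just apart, with a log2 change of 0.36 ± 0.13 (limma adjusted p = 0.0895).

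Genes that act beside these proteins were taken from 6 lists of 84 genes, of which 83 had values. Of the 83, 7 rose and 7 fell, together 16.9% against 15.7% of all genes, with a median log2 fold change of 0.06. Of all genes 7.05% passed as higher and 8.61% as lower, which is the background for the count of each list below. Among 11 genes of U1 and early intron recognition, 4 fell and 2 rose. Snrnp70, which encodes the U1-70K protein, had 14365 ± 448 normalized counts in PBS and 6480 ± 442 in VEGF-C (SD, n = 4). Its libraries ran from 13711 to 14690 in PBS and from 6082 to 7013 in VEGF-C, far apart, with -1.15 ± 0.07 for the log2 fold change (limma adjusted p = 2.602e-05). The LUC7-like genes, whose products help U1 choose 5′ splice sites, all fell. Luc7l2 gave -0.71 ± 0.08 (limma adjusted p = 0.000668), Luc7l3 -0.67 ± 0.09 (0.00165) and Luc7l -0.58 ± 0.08 (0.00137).

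The 4 U1 genes that fell passed under all 16 alternatives. The branch point binding protein gene Sf1 rose by 0.25 ± 0.06 (limma adjusted p = 0.0203) and the U2-associated Htatsf1 by 0.23 ± 0.07 (0.0474). Htatsf1 lost its call when any 1 library was left out, with a p of at most 0.110, and Sf1 without VEGF-C replicate 2 or 3 (at most 0.0652). With upper-quartile factors neither passed (limma adjusted p = 0.119 for Htatsf1 and 0.0530 for Sf1). Htatsf1 also missed with TMM factors, another scaling (0.0519), limma-voom (0.0511) and the robust fit (0.0521). With library totals none of the 7 list genes that rose passed.

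Among 17 U5 and tri-snRNP partners 0 passed with limma or limma-voom, 2 passed in the authors' deposited table (11.8%, against 21.6% of all genes) and 5 had an unadjusted p under 0.05 (29.4%, against 32.3%). In the 22 genes of the PRPF19 complex and the catalytic spliceosome 3 rose: Aqr, a helicase gene, by 0.33 ± 0.09 (limma adjusted p = 0.0326), Cdc5l by 0.27 ± 0.07 (0.0352) and Cwc15 by 0.24 ± 0.07 (0.0454). Cwc15 kept its call in none of the fits that left out a library (p at most 0.104). With upper-quartile factors neither Cwc15 nor Cdc5l passed (limma adjusted p = 0.115 and 0.0730), and Cwc15 also missed with TMM factors (0.0502). Aqr needed PBS replicates 2, 3 and 4 and VEGF-C replicates 3 and 4 (at most 0.0932 with 1 of them left out), and Cdc5l needed the same libraries and VEGF-C replicate 2 (at most 0.0856). Among 11 genes of the minor spliceosome 2 fell, Rnpc3 by 0.59 ± 0.14 (limma adjusted p = 0.0221) and Snrnp48 by 0.33 ± 0.08 (0.0236) on the log2 scale. Of 14 measured genes in the list for the SMN complex, Sm methylation and snRNP assembly, 1 rose, Strap, by 0.27 ± 0.07 (limma adjusted p = 0.0203). Of 8 decapping partners of the cytoplasmic LSM ring, Patl1 rose by 0.35 ± 0.10 (limma adjusted p = 0.0328) and Dcp1b fell by 0.45 ± 0.11 (0.0248). Leaving out 1 library could end each of these calls. Over all genes 1684 to 2906 passed in those fits, against 2949 with all libraries. Rnpc3 did not pass with PBS replicates 3 or 4 left out, nor with VEGF-C replicate 1 left out (p at most 0.0600). For Snrnp48 those libraries were PBS replicates 2 and 4 and VEGF-C replicates 1 and 2 (at most 0.0610), and for Strap PBS replicate 2 and VEGF-C replicate 3 (at most 0.0659). For Patl1 they were PBS replicates 2 and 3 and VEGF-C replicates 2, 3 and 4 (at most 0.0889), and for Dcp1b PBS replicate 2 and VEGF-C replicates 1 and 4 (at most 0.0640). Patl1 also did not pass with upper-quartile factors (limma adjusted p = 0.0510).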

How the data were processed

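Libraries were made with a stranded mRNA kit from total RNA with a RIN above 8.0 and sequenced on a NovaSeq instrument, per the labels' protocols. Tools named by the submitters' processing notes are Trim Galore 0.6.10, STAR 2.7.10a, featureCounts of Subread 2.0.1 and DESeq2 1.38.3, with build GRCm39. No label or note gives the annotation release, strand setting or treatment of multiple matches.

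The authors deposited expression on a log2 scale, which read back as log2(normalized count + 4). Dividing out 1 factor per library gave whole reads within 0.01, so depth is known. The table lists 56941 genes, 18835 with values. The authors' deposited log2 fold changes and adjusted p-values are in the same table, the latter missing for 23 genes.

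The deposited log2 values of all 18835 genes were tested with limma 3.58.1 (R 4.3.3), with treatment as the factor and a mean-variance trend, two-sided, and the fit was tested on simulated data. Ratios were compared by exact permutation over 70 assignments, with Benjamini-Hochberg adjustment over 9 ratios, 4 of them added after the values were seen. Exon lengths and copies came from GENCODE M21 (GRCm38) and promoters from RefSeq. Alternatives were other scalings, limma-voom, a robust fit, a pseudocount of 1, a minimum mean normalized count of 100, the authors' values, and each library left out.

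The members, gene lists and pairs were chosen with earlier results of these data known. Named members are those that passed, the 12 with the smallest p-values, and the highest and the most changed of each role. Members named for other reasons are marked as such, and 1 member with its ratio is not reported here. In the other lists, up to 6 genes that passed are named.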

Additional observations from a re-analysis of the deposited data

Results flagged for a closer look

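In 5 of the 98 groups of 4 libraries, 1 library stood apart from the other 3 by most of the range of the group, a gap above the 95% critical value of Dixon's test, which chance gives in about 1 of 20 groups. Values are log2(normalized count + 4). Lsm3 was at 10.34 in VEGF-C replicate 2 and at 10.06 to 10.1 in the other VEGF-C libraries, a gap of 0.876 of the range. Snrpa1, a U2 protein gene, was at 10.19 in PBS replicate 1 and at 9.85 to 9.86 in the others (0.967). Sf3b6, for the branch point protein of SF3B, was at 11.3 in PBS replicate 3 and at 10.97 to 11.02 in the others (0.848). Prpf8 was at 13.27 in PBS replicate 3 and at 13.63 to 13.67 in the others (0.906). Prpf38b was at 11.46 in VEGF-C replicate 3 and at 11.35 to 11.36 in the others (0.872). None of these genes passed the limma test between the groups.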

How the results depend on the processing

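No paired analysis was possible because the animal numbers in the labels are not shared between the groups and the column numbers tie to no animal. Sf3a2, Sf3a1, Sf3b4, Prpf4b and Prpf40b passed under all 16 alternatives, with an adjusted p of at most 0.0124, 0.0151, 0.0233, 0.0206 and 0.0279 when 1 library was left out. Members that passed as higher numbered 5 (7.05% of all genes), and 3 with library totals (1.29%), 8 with the filter on low genes (9.76%) and 8 in the authors' deposited table (10.2%). With 1 library left out these members numbered 5 to 6, and over all genes 591 to 1268 passed as higher, against 1328. Members that passed as lower numbered 3 (8.61%), and 6 with library totals (19.0%). With 1 library left out these members numbered 2 to 4, and over all genes 1093 to 1638 passed as lower, against 1621. Of the members named with a fold change, the sign turned with library totals for Lsm4 (-0.0747), Snrpb (-0.13), Sf3a3 (-0.14) and Prpf19 (-0.10), and with upper-quartile factors for Sf3a3 (-0.0061); over all 49, negative fold changes went from 12 to 39 and to 19. The cause was not tested.

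Of the U5 and tri-snRNP list 1 gene passed with library totals, 1 with the robust fit, 1 with the filter, 2 in the authors' table and 0 to 1 with 1 library left out, against 0. With 1 library left out, the U1 list gave 4 to 6 genes, the PRPF19 complex and catalytic list 0 to 2, the minor spliceosome 0 to 2, the SMN list 0 to 1 and the decapping list 0 to 2. Library totals left 0 genes of the SMN list, and upper-quartile factors 1 of the decapping list. The difference between the groups in the Snrpa to Snrpb2 log2 ratio, 0.01 over all libraries, lay between -0.10 and 0.13 with 1 library left out. Over all genes 2949 passed. With 1 library left out that count lay between 1684 (without VEGF-C replicate 3) and 2906 (without PBS replicate 1). It was 1956 without VEGF-C replicate 1. Each of these fits passed fewer of all genes than the fit of all libraries. Snrpf had the fewest reads, 34 to 91 in a library.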
